A study of Gallus gallus with 77 samples.

Results

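The SOX, HMG-box and TCF/LEF factors on the array were followed after laser wounds to the sensory epithelium (SE) of the chick cochlea. They were chosen by name, as the probes for SOX genes, SRY, HMG proteins, SSRP1, UBTF, LEF1 and TCF7 genes, and they came to 20 of the 1507 genes on the array. The 20 genes fell into 11 SOX factors (SOX2, SOX3, SOX4, SOX5, SOX9, SOX10, SOX11, SOX13, SOX14, SOX30 and SRY), 6 chromatin proteins (HMG2, HMG20B, HMGIC, HMGIY, SSRP1 and UBTF) and 3 WNT effectors (LEF1, TCF7 and TCF7L2). Newer symbols of HMG2, HMGIC and HMGIY are HMGB2, HMGA2 and HMGA1. A chicken gene with the current symbol was found for 19 of the 20 in the RefSeq table of assembly GRCg7b, and none was found for SRY.

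The lesioned cultures were pieces of SE from hatched White Leghorn chicks, freed with thermolysin, grown on fibronectin and given linear wounds with a pulsed laser microbeam. They were left for 30 min or for 1, 2 or 3 hr, and each was compared on the same array with unlesioned cultures of the same time, which were grown alike and stood beside the microscope meanwhile. Each biological sample pooled 4 lesioned and 4 unlesioned specimens, and its RNA was amplified before labelling. There were 2 biological replicates for each time point. Their arrays numbered 25 at 30 min, 17 at 1 hr, 15 at 2 hr and 20 at 3 hr, with the laser RNA in Cy3 on 38 of the 77 arrays and in Cy5 on 39. The probes were human 50 mers, so that a signal here is a hybridization of chick cDNA to a human sequence. In such pooled RNA, fewer cells of a type and less RNA per cell cannot be told apart.

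All SOX proteins, and LEF1 and the TCF7 proteins, bind DNA through an HMG box, a domain that bends the double helix. SOX2 marks the prosensory cells of the inner ear and later the supporting cells, the cells from which birds regenerate hair cells, while SOX4 and SOX11 act in the formation of sensory cells and SOX9 and SOX10 in the early otic epithelium and the neural crest. LEF1, TCF7 and TCF7L2 are the DNA-bound partners of beta-catenin and carry the output of canonical WNT signalling. The HMG chromatin proteins act more generally: HMG2 bends DNA with HMG boxes, HMGIC and HMGIY bind AT-rich DNA with AT-hooks instead, SSRP1 is a subunit of the histone chaperone FACT, HMG20B belongs to the LSD1 and CoREST complex, and UBTF is the RNA polymerase I factor of ribosomal RNA genes.

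The raw signal of most of the 20 genes lay close to that of the 27 control names, which are probes without a match in the human or chicken genome and probes with mismatches. The median control spot gave 1074 scanner units at 30 min, 2148 at 1 hr, 2151 at 2 hr and 1197 at 3 hr. The mean signal was above that median for 18 of the 20 genes at 30 min, 15 at 1 hr, 9 at 2 hr and 13 at 3 hr, against 86%, 74.5%, 49.9% and 70.1% of all genes. Detectable here means a signal of 1000 or more on 80% or more of the arrays at 1 time. The lowest control spot gave 809 units at 30 min, 1454 at 1 hr, 1557 at 2 hr and 865 at 3 hr, so that at 1 hr and 2 hr this limit lay below every control spot and does not tell a gene from one. A detectable signal was found for 6 of the 20 at 30 min, 19 at 1 hr, 15 at 2 hr and 13 at 3 hr, against 32.1%, 92.2%, 85.5% and 57.3% of all genes. At all 4 times 5 of the 20 were detectable, against 29.8% of all genes, and at none 1 of the 20, against 6.37%. The genes detectable at 30 min were SOX14, SOX30, HMGIY, UBTF, TCF7 and TCF7L2. SRY, the testis-determining factor of mammals, was the gene detectable at none, and its mean signal of 1045, 1750, 1344 and 963 at the 4 times was below the median control spot each time. The same held for SOX5, with 942, 2056, 1361 and 989.

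**Figure D1:**
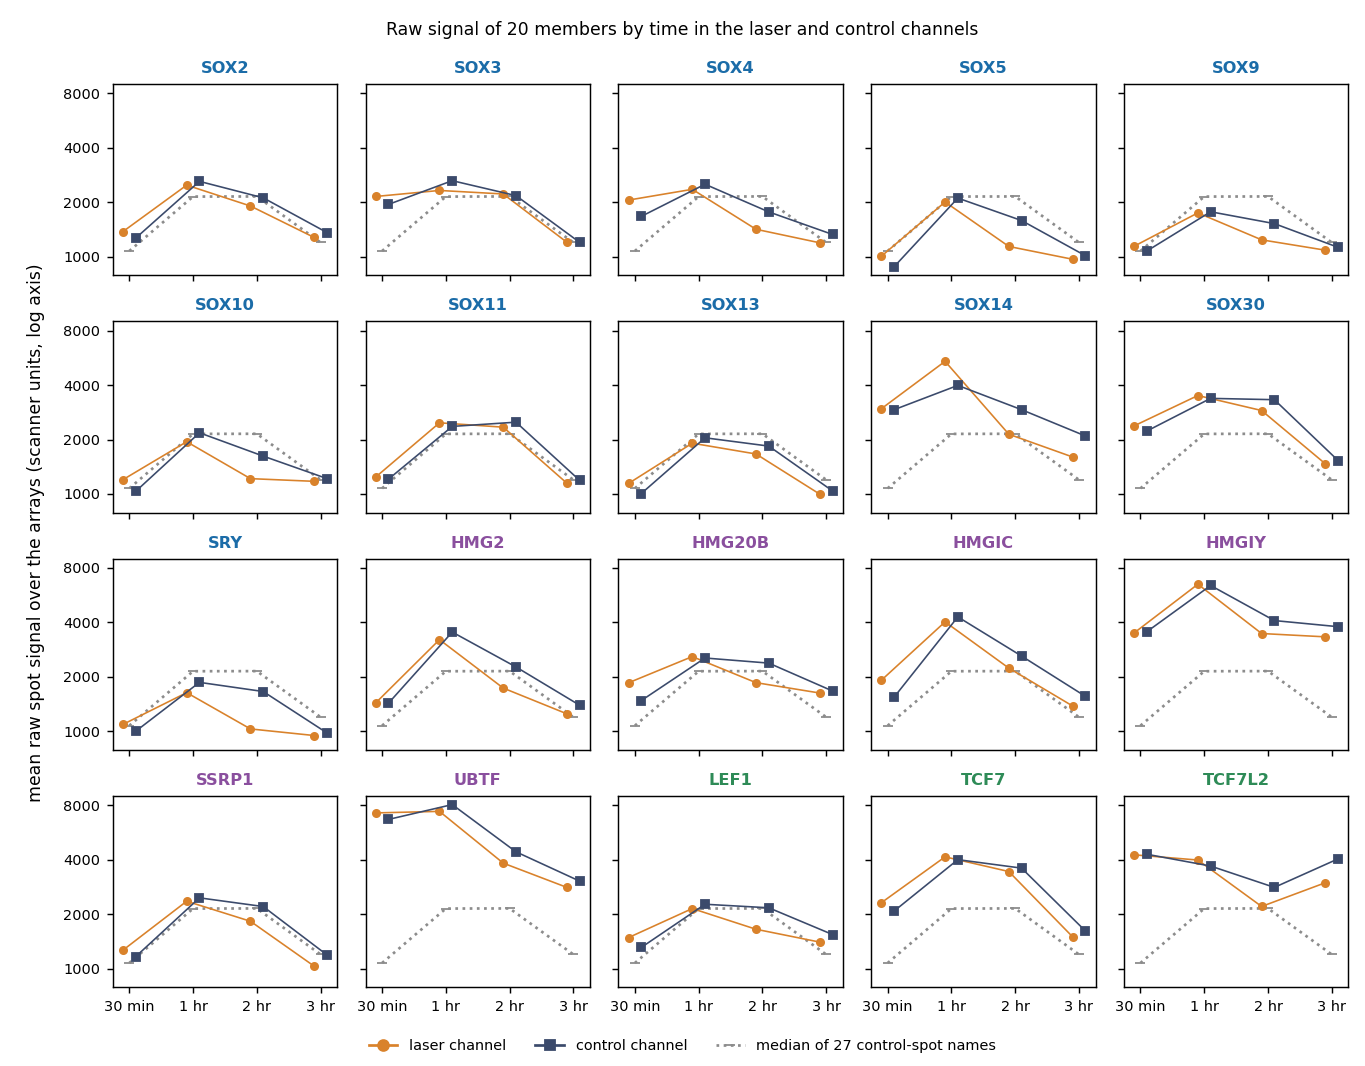
Mean raw signal of the 20 genes (log axis, scanner units) at 30 min, 1 hr, 2 hr and 3 hr in the laser channel (circles) and the control channel (squares), with the median control spot dotted. UBTF, HMGIY, TCF7L2 and SOX14 lie above the median control spot at 30 min, whereas SRY and SOX5 lie close to or below them throughout.

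Among the brighter genes, UBTF and HMGIY stayed above the median control spot in both channels at all 4 times, and TCF7L2 came close to it in the laser channel at 2 hr. UBTF averaged 7263, 7406, 3831 and 2811 units in the laser channel at the 4 times, against 6684, 8075, 4424 and 3045 in the control channel. HMGIY averaged 3498, 6506, 3472 and 3328 in the laser channel and 3554, 6402, 4095 and 3788 in the control channel. TCF7L2 averaged 4258, 3985, 2206 and 2985 in the laser channel, against 4289, 3691, 2813 and 4046 in the control channel. In each of these genes the channel means differed less than the time points did.

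Markers of several cell types were measured beside these genes. At 30 min, where some control spots lay under the limit of detection, 0 of 5 hair cell markers and 0 of 3 supporting cell markers were detectable. By that limit the sensory cell types could not be checked by these markers at that time. Their mean signals, 1107 to 2865 units for hair cell and 1107 to 1989 for supporting cell markers, were above the median control spot (1074). So were those of 86% of all genes. For other lists the counts detectable at 30 min were 3 of 4 neuron, 0 of 5 blood cell, 0 of 3 glia and melanocyte, 1 of 4 mesenchyme and 1 of 3 proliferation markers. Of all genes, 32.1% were detectable at 30 min. At 3 hr, where the lowest control spot (865) was also under the limit, 3 of 5 hair cell and 2 of 3 supporting cell markers were detectable. Of all genes, 57.3% were detectable then. SOX2 and SOX9 are themselves members of the supporting cell list, and SOX10 of the list for glia and melanocytes.

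The ratio of laser over control was taken from each array, averaged over the arrays of a dye orientation and then over both orientations, which gave 8 replicate values for each gene. These were tested against 0 in limma across the 1504 genes that passed the signal filter, all 20 among them. No gene of the array passed an adjusted p of 0.05 at any time point (0 of 1504 genes, 0% in every comparison). A gene is named as called here where the fold was more than 1.2 and the unadjusted p below 0.05, which are the limits that the study set on fold and p. Its methods took p from a one-sample test over hybridizations and also asked for 1 trend in at least 80% of them, a step not applied here. By the limits on fold and p 2 of the 20 genes were called at any time point, SOX14 and SOX3, both at 1 hr, against 8.31% of all genes. The sign of the mean was found on 10 of 17 arrays for SOX14 and on 11 of 17 for SOX3, under 80% in both. By time point the counts were 0, 2, 0 and 0 of the 20, against 3.46%, 0.332%, 4.19% and 1.53% of all genes. With no limit on the fold, SOX13 at 1 hr and UBTF at 3 hr were added, which made 4 of the 20 genes, against 22.9% of all genes. By time point these were 0, 3, 0 and 1 of the 20, against 8.91%, 2.66%, 10.9% and 3.79%. The F-test among the 4 times passed an unadjusted p of 0.05 in 2 of the 20, SOX14 and SOX3, against 8.18% of all genes. With 2 replicates a time point, these p-values rest on a spread pooled over the times and moderated across all genes. They speak only for the samples at hand.

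The labels give a direction for these ratios, but the values of the 2 dye orientations do not settle it. The dye that held the laser RNA was read from the sample titles, and the image names in the scanner files matched it for 77 of 77 arrays. With every ratio set as laser over control, however, arrays of opposite orientation gave opposed ratios: across the 1504 genes, which are not independent, r lay between −0.64 and −0.24 in 8 of 8 replicates. The authors' log2 ratios were turned in the same way. A difference that stays with the dye also gives opposed ratios. It was measured, as described further on, but how much of the opposition it accounts for was not tested. Ratios with no array turned, Cy5 over Cy3 throughout, go against the labels of the Cy3 arrays. If the labels hold, a laser effect cancels in these values, and they are no second estimate of laser over control. A value near 0 then means that both orientations gave about the same laser ratio. The unturned values are also given below for the genes that the results turn on. Within the 20 genes, the orientation means had the same sign in 6 genes at 30 min, 3 at 1 hr, 5 at 2 hr and 4 at 3 hr, against 36%, 21.9%, 28.2% and 26.7% of all genes. With no array turned, SOX2, SOX4, SOX10, SOX13, SOX14, SSRP1 and TCF7L2 passed an adjusted p of 0.05 at some time. No share of all genes is given for that limit, so that this cannot be read as particular to these genes. By the limits on fold and p, 43.7% of all genes were called at some time with no array turned. The dye difference described further on is the mean of these unturned values over the 8 replicates, so that it is no separate evidence.

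**Figure D2:**
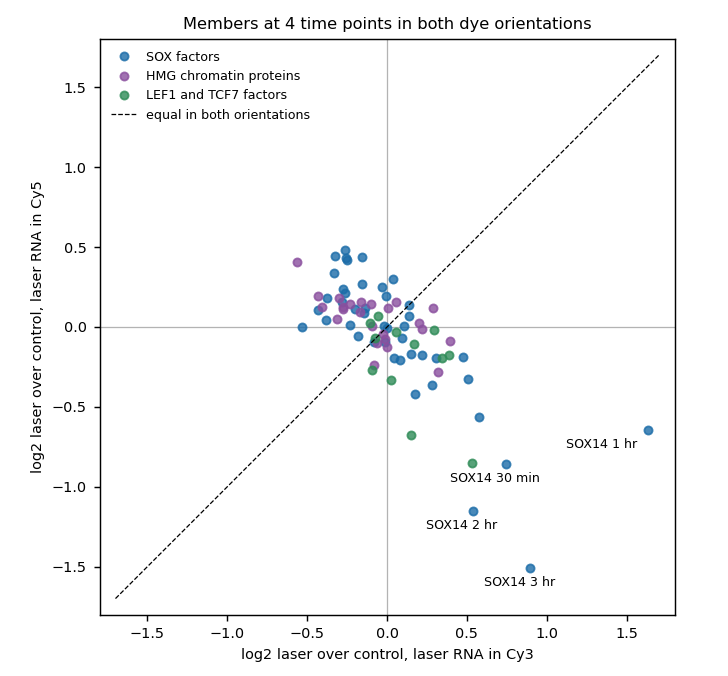
Log2 laser over control of each of the 20 genes at 4 time points, horizontally for arrays that carried laser RNA in Cy3 and vertically for those that carried it in Cy5, each point the mean of 2 replicates. Most points lie at upper left and lower right, where the orientations have opposite signs, and SOX14 lies farthest out, at 1.64 and −0.65 at 1 hr.

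As a group the 20 genes stayed near equality. Their median log2 ratio was −0.01 at 30 min, −0.04 at 1 hr, −0.07 at 2 hr and 0.04 at 3 hr, where the median of all genes tested was 0, −0.01, −0.01 and 0 to 2 decimals. Of the 20 genes, 9, 6, 6 and 13 were above 0 at these times. The 80 ratios lay between −0.31 and 0.50, with standard errors of 0.07 to 0.15. Both replicates had the same sign in 10 of the 20 genes at 30 min, 12 at 1 hr, 10 at 2 hr and 14 at 3 hr, against 56.4%, 51.7%, 52.3% and 50.4% of all genes. All 4 means of a time point, from 2 replicates in 2 orientations, shared 1 sign only for UBTF at 2 hr and SOX30 at 3 hr, whereas this held for 8.38%, 3.66%, 7.98% and 7.51% of all genes at the 4 times.

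**Figure D3:**
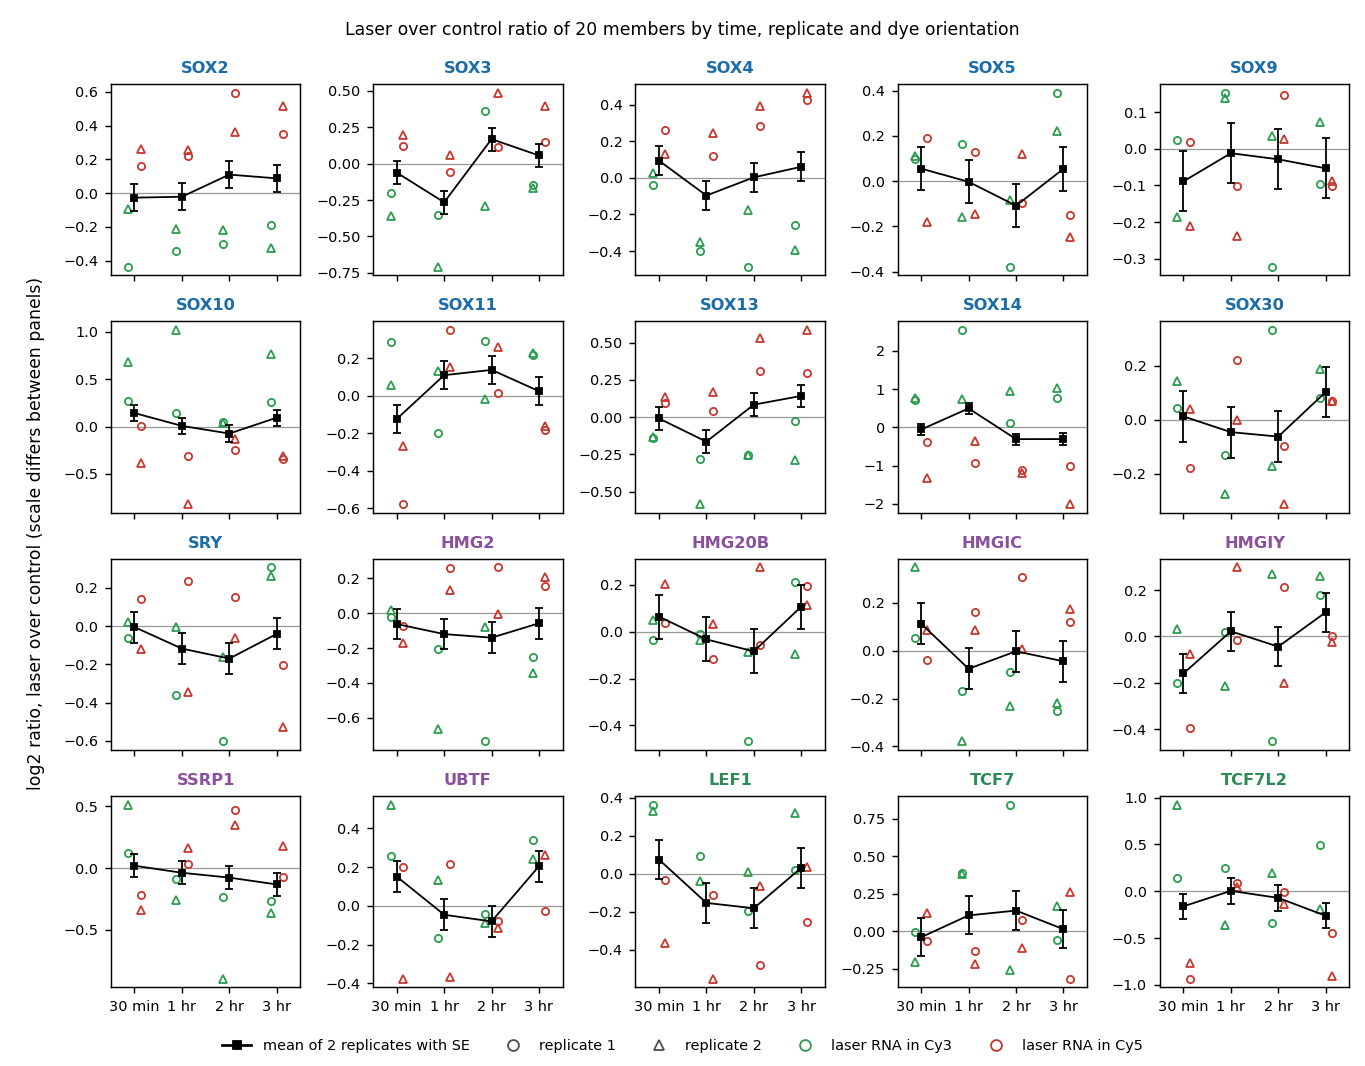
Log2 ratio of laser over control for each of the 20 genes by time. Black squares are the means of 2 replicates with the standard error of the limma fit, and open symbols are the means of the arrays of 1 replicate (circle or triangle) with the laser RNA in Cy3 (green) or Cy5 (red). The green and red symbols separate in SOX2, SOX4, SOX13 and SOX14 at all or nearly all times.

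SOX14, a SOX factor of group B that acts as a repressor, had the largest ratio of the 20 genes and the highest of all 1504 genes at 1 hr. Its replicates gave 0.80 and 0.19 at 1 hr, 0.17 and −0.28 at 30 min, −0.50 and −0.12 at 2 hr and −0.12 and −0.49 at 3 hr. Both replicates were above 0 at 1 hr and below 0 at 2 hr and 3 hr. The mean at 1 hr was 0.50 ± 0.15 on the log2 scale (SE), a fold of 1.41 with a 95% interval of 0.18 to 0.81 in log2 (limma, p = 0.0047 unadjusted, adjusted p = 0.999). At 2 hr and 3 hr it was −0.31 ± 0.15 and −0.31 ± 0.15 (limma, unadjusted p = 0.055 and 0.056). The moderated F-test among the 4 times gave an unadjusted p of 0.0055 and an adjusted p of 0.566.

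The 1 hr value of SOX14 joined arrays of opposite sign. In replicate 1 the arrays averaged 2.54 where Cy3 held the laser RNA and −0.94 where Cy5 held it, and in replicate 2 they averaged 0.73 and −0.35. All 9 arrays of the Cy3 orientation were above 0, and 7 of the 8 of the Cy5 orientation were below 0. The 5 Cy3 arrays of replicate 1 stood between 2.04 and 2.91, above every other SOX14 value at 1 hr. With no array turned, the value at 1 hr was −1.14, and from the Cy5 orientation alone it was −0.65. Without 1 hr replicate 1 the ratio was 0.19 (limma, unadjusted p = 0.316), so that the call rested on that replicate. The signal of SOX14 also differed between the replicates at 1 hr, at 7280 units in replicate 1 and 1795 in replicate 2. Whether this has a part in the ratio was not tested.

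SOX3, a group B1 factor of neural and otic progenitors, had the lowest ratio of all 1504 genes at 1 hr. Its replicates gave −0.21 and −0.33 at 1 hr, −0.04 and −0.08 at 30 min, 0.24 and 0.10 at 2 hr and 0 and 0.11 at 3 hr. The mean at 1 hr was −0.27 ± 0.08 (SE), a fold of 0.832 (limma, p = 0.0049 unadjusted, adjusted p = 0.999). The F-test among the times gave an unadjusted p of 0.0109 and an adjusted p of 0.567. On the 4 Cy3-orientation arrays of replicate 2, however, 3 lay between −0.09 and 0 and 1 at −2.67. Without that array, a choice made after its value was seen, SOX3 averaged −0.10 at 1 hr (limma, unadjusted p = 0.241) and replicate 2 averaged 0, and the F-test gave an unadjusted p of 0.141. The low ratio of SOX3 at 1 hr thus came largely from 1 of 17 arrays, whose spread over all genes (SD 0.378) was below that of the median array (0.41).

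**Figure D4:**
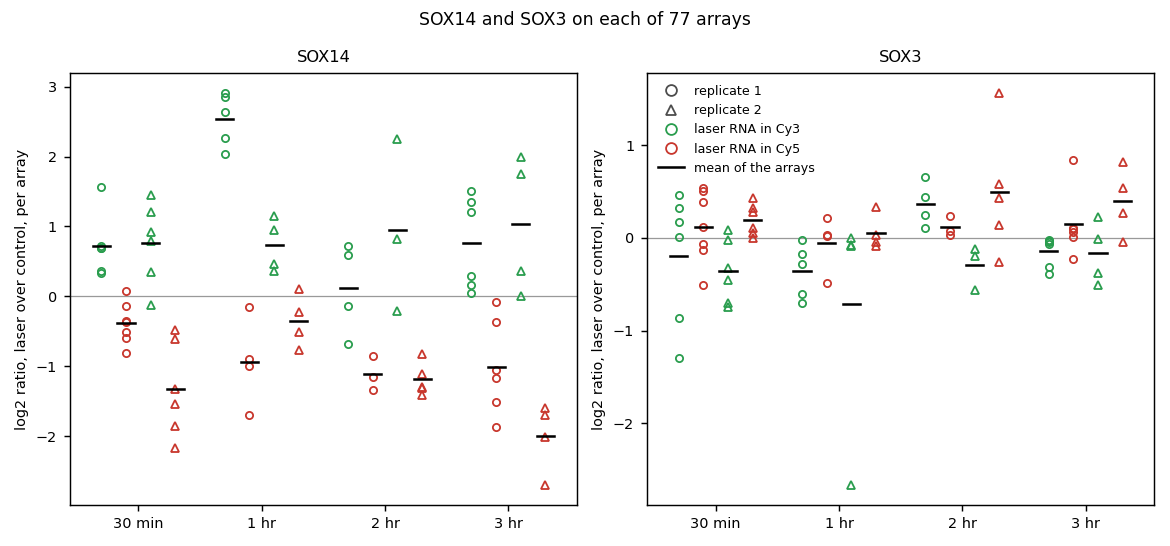
Log2 ratio of laser over control of SOX14 (left) and SOX3 (right) on each array, by time, replicate (circle or triangle) and dye of the laser RNA (green for Cy3, red for Cy5), with the mean of each set of arrays as a bar. For SOX14 the means of the 2 dyes lie on opposite sides of 0 at all 4 times in both replicates, and for SOX3 1 array at 1 hr lies at −2.67, far from the rest.

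SOX13, a group D factor that can bind TCF proteins, averaged −0.12 and −0.21 in the 2 replicates at 1 hr. Its other replicate values were −0.02 and 0 at 30 min, 0.03 and 0.14 at 2 hr and 0.14 and 0.15 at 3 hr. The mean at 1 hr was −0.17 ± 0.08 (SE), a fold of 0.892 (limma, p = 0.0466 unadjusted, adjusted p = 0.999). The fold did not reach 1.2, and the unadjusted p was 0.05 or more when any of 5 of the 17 arrays was left out. With no array turned the value was 0.27, and the F-test among the times gave an unadjusted p of 0.0603. The mean signal of SOX13 was 1976 units at 1 hr, 1751 at 2 hr and 1018 at 3 hr. The median control spot was higher each time, at 2148, 2151 and 1197.

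Time points were also compared directly. SOX14 differed from 1 hr by −0.80 ± 0.21 at 2 hr and by −0.80 ± 0.21 at 3 hr, and the 1 hr value differed from that at 30 min by 0.55 ± 0.21 (limma, unadjusted p = 0.0018, 0.0018 and 0.0191). With no array turned, where a laser effect cancels if the labels hold, these differences of SOX14 were 0.30, −0.06 and −0.34 (limma, unadjusted p = 0.356, 0.849 and 0.294). SOX3 differed from 1 hr by 0.43 ± 0.11 at 2 hr and 0.32 ± 0.11 at 3 hr (limma, unadjusted p = 0.0018 and 0.0124), a difference that the array at −2.67 enters, and with no array turned these were −0.13 and −0.05. SOX13 differed from 1 hr by 0.25 ± 0.11 at 2 hr and 0.31 ± 0.11 at 3 hr (limma, unadjusted p = 0.0362 and 0.0126), and with no array turned 0.07 and 0.03. Over the 6 contrasts, 2 of the 20 genes passed an unadjusted p of 0.05 for 1 hr minus 30 min (9.04% of all genes), 1 for 2 hr minus 30 min (15.2%), 1 for 3 hr minus 30 min (3.99%), 3 for 2 hr minus 1 hr (4.99%), 4 for 3 hr minus 1 hr (4.06%) and 1 for 3 hr minus 2 hr (6.38%). No contrast of any of the 20 genes passed an adjusted p of 0.05, against 0.133% of all genes for 2 hr minus 30 min and 0% for the others. The 1 hr and 2 hr arrays shared 2 scan days, and within these days the difference of 2 hr and 1 hr, with each orientation averaged first, was −0.62 and −0.91 for SOX14, 1.53 and 0.11 for SOX3 and −0.03 and 0.24 for SOX13. The value of 1.53 rests on the array at −2.67, the only 1 hr array of that day with Cy3 for the laser RNA. SOX14 itself stood at −0.09 at 1 hr on the first of these days (1 array of the Cy3 orientation and 2 of the other) and at 0.64 on the other (8 arrays). The 30 min and 3 hr arrays shared no scan day with another time point, so that day and time cannot be told apart there.

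The SOX genes best known from the ear showed no called ratio of laser over control. SOX2, the marker of supporting cells, gave −0.14 and 0.08 at 30 min, −0.06 and 0.02 at 1 hr, 0.15 and 0.07 at 2 hr and 0.08 and 0.10 at 3 hr. Its means were −0.03, −0.02, 0.11 and 0.09, each ± 0.08 (SE), and the 95% interval at 2 hr, the time of its highest mean, was −0.06 to 0.28. SOX2 had 0.37 at 2 hr and 0.35 at 3 hr with no array turned (limma, adjusted p = 0.0167 and 0.0295). SOX9, which acts early in the otic placode, gave 0.02 and −0.20 at 30 min, 0.03 and −0.05 at 1 hr, −0.09 and 0.03 at 2 hr and −0.10 and −0.01 at 3 hr. The replicates of SOX9 differed in sign at 30 min, 1 hr and 2 hr. The mean signal of SOX9 was 1758, 1380 and 1105 units at 1, 2 and 3 hr. The median control spot was higher each time, and at 2 hr even the lowest was (1557). SOX2 was below the median control spot at 2 hr only (2010 against 2151). For SOX9, an absent response cannot be told from an absent signal at these times.

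The group C factors SOX4 and SOX11 passed no threshold against 0 at any time. SOX4 gave 0.11 and 0.08 at 30 min, −0.14 and −0.05 at 1 hr, −0.10 and 0.11 at 2 hr and 0.08 and 0.04 at 3 hr, and with no array turned its means at 2 hr and 3 hr were 0.33 and 0.38 (limma, adjusted p = 0.0206 and 0.0179). The mean signal of SOX4 at 2 hr, 1592 units, was below the median control spot (2151). In replicate 2 it was 917, below the lowest control spot (1557). SOX4 was detectable at 1 hr only. SOX11 gave −0.14 and −0.10 at 30 min, 0.07 and 0.14 at 1 hr, 0.15 and 0.12 at 2 hr and 0.02 and 0.03 at 3 hr. Both replicates of SOX11 had the same sign at every time. SOX11 was higher at 1 hr and 2 hr than at 30 min by 0.23 ± 0.10 and 0.26 ± 0.10 (limma, unadjusted p = 0.0428 and 0.0258, adjusted p = 0.538 and 0.275). Its F-test over all times gave an unadjusted p of 0.101, and with no array turned its ratios were −0.30, 0.14, 0 and −0.20 at the 4 times.

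SOX10, a factor of the otic vesicle, glia and melanocytes, gave 0.14 and 0.15 at 30 min, −0.09 and 0.10 at 1 hr, −0.10 and −0.05 at 2 hr and −0.04 and 0.23 at 3 hr. None of its means passed an unadjusted p of 0.05 in limma, and the largest, 0.14 ± 0.09 (SE) at 30 min, had an unadjusted p of 0.122. SOX10 had −0.57 at 1 hr with no array turned (limma, adjusted p = 0.0352). Its mean signal of 2061, 1417 and 1195 units at 1, 2 and 3 hr was below the median control spot each time. At 2 hr it was also below the lowest control spot (1557). The remaining SOX genes were SOX5, a group D factor, SOX30, known from spermatids, and SRY. Their 12 ratios lay between −0.17, for SRY at 2 hr, and 0.10, for SOX30 at 3 hr. SOX30 at 3 hr was above 0 in all 4 orientation means (0.08, 0.07, 0.19 and 0.07), with a mean of 0.10 ± 0.09 (limma, unadjusted p = 0.297).

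Among the chromatin proteins UBTF had the only value past the unadjusted threshold. It gave 0.16 and 0.25 at 3 hr, 0.23 and 0.07 at 30 min, 0.02 and −0.12 at 1 hr and −0.06 and −0.10 at 2 hr. The mean at 3 hr was 0.20 ± 0.08 (SE), a fold of 1.15 (limma, p = 0.023 unadjusted, adjusted p = 0.988), and 15 of 20 arrays were above 0. At 3 hr, UBTF was above 0 in the Cy3 orientation (0.29) and the Cy5 orientation (0.12), and 3 of its 4 orientation means were above 0. The fold did not reach 1.2. With no array turned it was −0.09. Its ratio at 3 hr exceeded that at 2 hr by 0.29 ± 0.11 (limma, unadjusted p = 0.0247, adjusted p = 0.74) and that at 1 hr by 0.25 ± 0.11 (unadjusted p = 0.0439). Without replicate 1 the ratio at 3 hr was 0.25 (limma, unadjusted p = 0.0528), and without replicate 2 it was 0.16 (unadjusted p = 0.205).

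The other chromatin proteins were not called. HMGIY, whose protein is an architectural factor of active chromatin, had −0.16, 0.02, −0.04 and 0.10 at the 4 times, and 3 hr differed from 30 min by 0.26 ± 0.12 (limma, unadjusted p = 0.0468, adjusted p = 0.982). HMGIC had 0.11, −0.08, 0 and −0.04, and HMG2 −0.06, −0.12, −0.14 and −0.06. HMG2 was below 0 at every time, with a smallest unadjusted p of 0.131, and with no array turned it had −0.06, 0.32, 0.27 and 0.24. SSRP1 had 0.02, −0.04, −0.08 and −0.13 and HMG20B 0.06, −0.03, −0.08 and 0.11. At 2 hr all 6 chromatin proteins were below 0, with a median of −0.08, where the median of all genes was −0.01. The mean signals of HMG2 (2000 units), HMG20B (2120) and SSRP1 (2016) were then below the median control spot (2151). Those of HMGIC, HMGIY and UBTF were above it. Of the 6, 5 were above 0 at 2 hr with no array turned, SSRP1 farthest at 0.49 (limma, adjusted p = 0.0095). In the laser over control ratios at that time 2 of the 6 had the same sign in both replicates, whereas at 3 hr 6 of 6 had, with 3 above 0.

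The WNT effectors gave no called ratio of laser over control, and none of the 12 passed an unadjusted p of 0.05. LEF1, whose gene is itself induced by WNT signals in several tissues, gave 0.17 and −0.02 at 30 min, −0.01 and −0.30 at 1 hr, −0.34 and −0.03 at 2 hr and −0.11 and 0.18 at 3 hr. TCF7, named TCF1 in the lymphocyte field, gave −0.04 and −0.05 at 30 min, 0.13 and 0.08 at 1 hr, 0.46 and −0.18 at 2 hr and −0.19 and 0.21 at 3 hr. TCF7L2, the effector best known from the intestine, gave −0.40 and 0.08 at 30 min, 0.17 and −0.16 at 1 hr, −0.17 and 0.03 at 2 hr and 0.02 and −0.55 at 3 hr. The replicates of TCF7L2 had opposite signs at all 4 times. As Cy5 over Cy3 throughout, TCF7L2 had −0.69 at 30 min and −0.42 at 3 hr (limma, adjusted p = 0.00285 and 0.0322). The 95% intervals were wide: −0.41 to 0.04 for LEF1 at 2 hr, −0.14 to 0.41 for TCF7 at 2 hr and −0.55 to 0.03 for TCF7L2 at 3 hr, so that differences of 1.2-fold were within the error.

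The dye difference, by contrast, passed an adjusted p of 0.05 in many genes of the array, some of these 20 among them. It was measured as Cy5 over Cy3 on 16 orientation means, whatever RNA was in each dye, with a laser effect for each replicate in the fit. It is thus the mean of the values with no array turned that are given above. At an adjusted p under 0.05 it was found in 9 of the 20 genes, against 32.9% of all genes, namely in 6 of 11 SOX factors, 1 of 6 chromatin proteins and 2 of 3 WNT effectors. The median size was 0.12 in the 20 genes and 0.11 in all genes. SOX14 had −0.997 ± 0.109 (SE; limma, adjusted p = 5.86e-06), and its orientation means ran from −2.54 to −0.12, with 0 of 16 above 0. It stood at place 3 of 1504 from the Cy3 end.

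**Figure D5:**
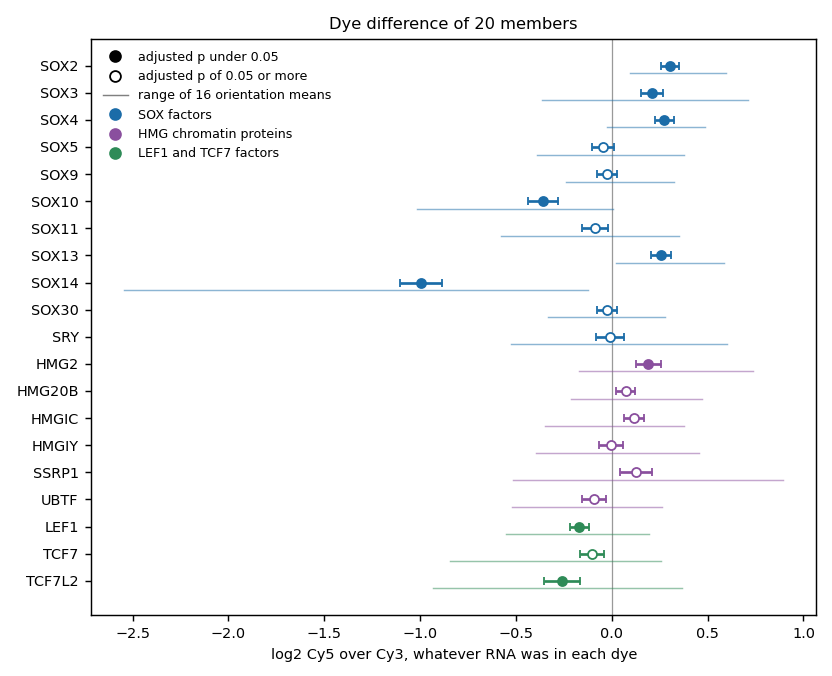
Dye difference (log2 Cy5 over Cy3 with SE) of the 20 genes, with the range of the 16 orientation means as a thin line. Filled points had an adjusted p under 0.05: SOX2, SOX3, SOX4, SOX13 and HMG2 were brighter in Cy5, and SOX10, SOX14, LEF1 and TCF7L2 in Cy3.

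The dye difference favoured Cy5 for 5 of the 20 genes, against 15.6% of all genes. SOX2 had 0.30 ± 0.05, SOX4 0.27 ± 0.05 and SOX13 0.26 ± 0.05 (SE; limma, adjusted p = 0.000206, 0.000824 and 0.00163), at places 15, 25 and 37 of 1504 from the Cy5 end. Of their 16 orientation means, 16, 15 and 16 were above 0. SOX3 had 0.21 ± 0.06 and HMG2 0.19 ± 0.06 (limma, adjusted p = 0.0107 and 0.0291). In SOX2, SOX4 and SOX13 the Cy5 orientation therefore gave a positive laser ratio and the Cy3 orientation a negative one at nearly all times. SOX2 at 3 hr, for example, averaged 0.43 in the Cy5 orientation and −0.26 in the Cy3 orientation.

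The dye difference favoured Cy3 for 4 of the 20 genes, against 17.3% of all genes, SOX10, LEF1 and TCF7L2 besides SOX14. SOX10 had −0.36 ± 0.08, TCF7L2 −0.26 ± 0.09 and LEF1 −0.17 ± 0.05 (SE; limma, adjusted p = 0.00224, 0.0379 and 0.0133). In SOX10, 1 of 16 orientation means was above 0, and in LEF1, 3 of 16. For TCF7L2 it was 5 of 16, and at 1 hr and 2 hr its orientations differed little, at −0.06 in Cy3 and 0.07 in Cy5 at 1 hr and at −0.07 and −0.07 at 2 hr. The 2 spots of a gene on an array differed by a median of 0.19 in log2 ratio over the 20 genes and 0.20 over all genes, so that the duplicate spots of these genes were as close as those of other genes.

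Signal level relative to the median gene of each array was compared among the times. No gene of the 20 passed an adjusted p of 0.05, against 0.598% of all genes, and 4 passed an unadjusted p of 0.05, against 17.6%. TCF7L2 stood at 1.55 above the array median on the log2 scale at 30 min, 0.46 at 1 hr, 0.47 at 2 hr and 1.91 at 3 hr (F-test in limma, unadjusted p = 0.0045, adjusted p = 0.157). Its replicates gave 1.07 and 2.04, 1.00 and −0.09, 0.41 and 0.54, and 1.73 and 2.10 at these times. Both replicates were above those of 2 hr at 30 min and 3 hr.

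TCF7, HMGIC and HMG2 had the other unadjusted differences of level, in other patterns. TCF7 stood at 0.67, 0.75, 1.18 and 0.22 at the 4 times (limma, unadjusted p = 0.0105, adjusted p = 0.169). HMGIC stood at 0.07, 0.93, 0.41 and 0.07, highest at 1 hr (limma, unadjusted p = 0.0191, adjusted p = 0.197). HMG2 stood at −0.31, 0.54, −0.12 and −0.22 and was also highest at 1 hr (limma, unadjusted p = 0.0292, adjusted p = 0.24). HMGIC and HMG2 are both known from proliferating cells. Since each time point was scanned on its own days, apart from the 2 days shared by 1 hr and 2 hr, time and scan day cannot be told apart for these levels.

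Of 38 genes that act with these factors or are their targets, 8 (21.1%) passed an unadjusted p of 0.05 at some time, against 22.9% of all genes. Of 8 WNT co-regulators tested, including beta-catenin (CTNNB1) and the Groucho factor TLE4, 0 passed an unadjusted p of 0.05 at any time. Of 10 WNT targets, 5 passed at some time point. NEUROG1, a proneural factor that is also on the list of neuron markers, had 0.56 ± 0.10 (SE) at 30 min, with replicates at 0.54 and 0.57 (limma, unadjusted p = 6.5e-05, adjusted p = 0.0685). PPARD, a nuclear receptor, had −0.34 ± 0.08 at 30 min, with replicates at −0.30 and −0.37 (adjusted p = 0.202). The others were CDX1 at 30 min, JUN at 1 hr and the brachyury gene T at 2 hr. NEUROG1 shared the smallest adjusted p of all genes at 30 min with EGR1, which is on none of these lists. With no array turned NEUROG1 had 0.08 and PPARD 0.20 at 30 min, each smaller in size than its ratio. Both orientation means of each gene thus shared the sign of the ratio.

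Of 14 partners of SOX proteins, 2 passed an unadjusted p of 0.05 at some time. PAX2, an otic factor that works with SOX2, had −0.31 ± 0.09 at 2 hr, with replicates at −0.46 and −0.15 (limma, unadjusted p = 0.0046, adjusted p = 0.216). The mean signal of PAX2 at 2 hr was 1901 units, below the median control spot (2151). EYA1, a coactivator of the otic placode, had −0.20 ± 0.09 at 30 min (adjusted p = 0.523). Of 8 partners of the chromatin proteins, TAF1A, a subunit of the RNA polymerase I selectivity factor SL1, had −0.22 ± 0.09 at 30 min (adjusted p = 0.45), when its partner UBTF had 0.15 ± 0.08. The unadjusted p of UBTF at 30 min was 0.0794. With no array turned, PAX2 had 0.28 at 2 hr, EYA1 0.20 at 30 min and TAF1A 0.12 at 30 min. Both orientation means shared the sign of the ratio for PAX2 and TAF1A, but not for EYA1.

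Of 5 hair cell markers, BARHL1 at −0.35 ± 0.08 and MYT1 at −0.28 ± 0.08 passed the limits on fold and p at 2 hr, where 4.19% of all genes did (limma, adjusted p = 0.209 for both). With no array turned they had 0.02 and 0.07, each smaller in size than the ratio. Both orientation means of each thus shared the sign of the ratio. The mean signal of MYT1 at 2 hr was 1466 units and that of GFI1 1510, both below the lowest control spot (1557). POU4F3, at 1917, was below the median control spot (2151), whereas ATOH1 (2502) and BARHL1 (3267) were above it. The ratios of MYT1 and GFI1 thus come from signals no higher than those of control spots. All 5 hair cell markers were below 0 at 2 hr, as were all 3 proliferation markers, all 4 neuron markers and 13 of 14 SOX partners. Other lists went otherwise at 2 hr. All 8 partners of the chromatin proteins were above 0, with 2 of 3 supporting cell markers and 4 of 8 WNT co-regulators. So were 2 of 4 mesenchyme markers, 2 of 5 blood cell markers and 3 of 10 WNT targets. Of all genes, 678 of 1504 were above 0. Of 5 blood cell markers 2 passed an unadjusted p of 0.05, ZNFN1A1 at 2 hr (0.19) and SPI1 at 3 hr (−0.21), and of 4 neuron markers NEUROG1. Of the 3 supporting cell markers and the 3 proliferation markers, 0 passed an unadjusted p of 0.05 at any time. These values stand beside the 2 hr ratios of SOX14 and the chromatin proteins, and their part in those ratios was not tested.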

How the data were processed

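The authors deposited, for each dye of each of 77 arrays, the intensity of 3072 spots and of their local background as measured by ImaGene 4.1, without background correction or normalization, and no spot carried a quality flag. They also deposited a table of log2 ratios of laser over control, which was checked against the scanner values, equals the raw log2 ratio within 6.66e-15 and served only as an alternative. No probe sequence was used here, and gene names are those of the array.

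In limma 3.58.1 under R 4.3.3, normexp (offset 50) corrected the background of both channels and loess normalized within arrays, with the spots of 27 control names at weight 0. Spots of a gene (2 for each of the 20) were averaged, and ratios were multiplied by −1 where Cy3 held the laser RNA. Arrays of 1 orientation of a biological replicate share the same pair of RNAs and were averaged, then both orientations, giving 8 values. Genes with a mean signal of at least 1000 at any time point were tested (1504 of 1507). The mean of each time point was tested against 0, with a moderated F-test and contrasts among time points, a fit of the dye on 16 orientation means, and Benjamini-Hochberg adjustment over all genes. With 2 replicates a time point, precision rests on a spread pooled over the times (median residual SD 0.116, prior degrees of freedom 9.3). Signal over local background was 5.71, 2.76, 3.05 and 3.04 in the median array at the 4 times. No 2 arrays held identical values. The replicates' values correlated between −0.01 and 0.21 across genes. The averaging to replicate values and the fits of ratio and dye were tested on simulated array ratios. Background correction, loess, spot averaging and the signal filter were not part of that test.

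Genes given in full are those past an unadjusted p of 0.05 at any time point and those with a known part in the inner ear or in WNT signalling. TCF7L1, of that list, was not measured here. The genes and lists were chosen with earlier results of these data known. Alternatives changed the background correction, loess, filter, averaging, orientation, source of values, scan day, replicate block and test, and left out replicates. The values within scan days and without single arrays were chosen after seeing the data.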

Additional observations from a re-analysis of the deposited data

Results flagged for a closer look

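The ratio of SOX14 differed between time points by the contrasts of the limma fit before adjustment. The difference was 0.55 for 1 hr minus 30 min, −0.80 for 2 hr minus 1 hr and −0.80 for 3 hr minus 1 hr, with adjusted p-values of 0.475, 0.908 and 0.985. The ratio of SOX3 differed in the same way, by 0.43 for 2 hr minus 1 hr and by 0.32 for 3 hr minus 1 hr, with adjusted p-values of 0.908 and 0.985. With no array turned these differences were −0.34, 0.30 and −0.06 for SOX14 and −0.13 and −0.05 for SOX3. Both patterns turn on the 1 hr arrays, on replicate 1 for SOX14 and on 1 array of replicate 2 for SOX3.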

How the results depend on the processing

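At an unadjusted p below 0.05 and a fold above 1.2 the count of 2 genes (8.31% of all genes) became 4 with plain background subtraction (15.6%), 1 with no background correction (2.99%), 14 with the laser RNA in Cy3 alone (53.6%), 11 with it in Cy5 alone (43.4%), 13 with no array turned (43.7%), 0 with the authors' log2 ratios (6.32%), 0 with the methods' t-test over all arrays (5.25%) and 1 without the array at 1 hr where SOX3 was lowest. Leaving out 1 replicate gave 1 to 4 (9.04% to 18% of all genes). The adjusted count of 0 became 2 with the laser RNA in Cy3 alone, 4 in Cy5 alone and 7 with no array turned, and was 0 in every other alternative run, each replicate left out included. The F-test count of 2 became 4 with no array turned and 1 to 3 with 1 replicate left out. The dye count of 9 ran from 6 to 12. The level count of 0 became 1 (TCF7L2) without 1 hr replicate 1 and was 0 without any other replicate. No share of all genes is given for the adjusted, F-test, dye and level counts in these alternatives. They can therefore not be read as particular to these genes. Some ratios past an unadjusted p of 0.05 changed sign in Cy5 alone. The values with no array turned also had the other sign, but a laser effect cancels in them if the labels hold. SOX14 at 1 hr had −0.65 in Cy5 alone and −1.14 with no array turned. In these settings SOX3 at 1 hr had 0 (0.00103) and 0.27, and SOX13 at 1 hr 0.10 and 0.27. UBTF at 3 hr had −0.0856 with no array turned. Why the orientations differed was not tested. Without 1 hr replicate 2, SOX3 had −0.21 (limma, unadjusted p = 0.108), and SOX13 at 1 hr had an unadjusted p of 0.0604 under the replicate block, where SOX14 also passed at 2 hr (−0.31, unadjusted p = 0.0392) and 3 hr (−0.31, unadjusted p = 0.0402). SOX13 and UBTF no longer passed an unadjusted p of 0.05 without either replicate of their time point. The replicate block gave counts of 2 for the unadjusted call, 0 for the adjusted call, 2 for the F-test and 0 for the level. Differences between the replicates correlated between −0.25 and 0.17 over 6 pairs of time points. Such noisy differences cannot show whether samples of the same replicate number belong together across the times. Signals near the control spots limit what could be detected: at 2 hr 751 of 1504 genes were above the median control spot, against 1293 at 30 min.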
